A study of Mus musculus with 9 samples.

Results

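Srebf2, Insig1, Hmgcs1, Idi1, Fdft1, Sqle, Cyp51 and Dhcr7 are the 8 genes described here. They are enzymes of cholesterol synthesis and regulators of the SREBP2 transcription factor that drives it. They were taken by gene symbol from a table of 16509 genes, where all 8 have a row, and all 8 passed the filter on low counts that left 11949 genes for testing. Their RNA was measured in 9 libraries of MC38, a colon carcinoma cell line of the mouse. The 3 Ctrl libraries carry DMSO as their treatment label, although the study's text names PBS. The 3 Cu-Cys libraries came from cells given copper chloride with cystine. The 3 Cadict libraries came from cells given a nanoparticle that holds copper, cystine, glucose oxidase and GE11, a peptide that binds the epidermal growth factor receptor. Dose and exposure time for these libraries were not given in the sources used here, and the labels do not say whether these replicates were separate cultures, while the study's methods speak of biological replicates in general. The p-values measure only the spread between these libraries, which may be technical.

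Cholesterol is built in the endoplasmic reticulum from acetyl-CoA by way of mevalonate, isoprenoid diphosphates, squalene and lanosterol. When sterols in that membrane run low, SCAP escorts the SREBP2 precursor to the Golgi, where proteases release a fragment that switches on nearly every gene of the route. INSIG1 holds SCAP back when sterols are plentiful, and both Srebf2 and Insig1 are themselves SREBP2 targets, so the system feeds back on its own regulators. Tumour cells use the route for membranes and for the isoprenoids that anchor signalling proteins.

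The stretches just before the start site show what some of these genes share in sequence. RefSeq promoter windows on GRCm38.p6, from 250 bases before to 50 bases after each start, were matched for 6 of the 8 genes (Sqle and Fdft1 were not matched). The letters TCACNCCA of a sterol regulatory element were searched on both strands, together with CCAAT, the NF-Y box, and GGGCGG, the Sp1 box. The upstream 250 bases of Srebf2 (chr15:82147019-82147268), Hmgcs1 (chr13:119690101-119690350), Insig1 (chr5:28071162-28071411) and Idi1 (chr13:8885356-8885605) are printed, all on the plus strand. Srebf2 and Hmgcs1 are shown because they alone of the 6 matched genes held TCACNCCA, and Insig1 and Idi1 because they are a regulator and a mevalonate enzyme without those letters. Capitals mark TCACNCCA and CCAAT, the latter read as ATTGG where it lies on the other strand.
Srebf2: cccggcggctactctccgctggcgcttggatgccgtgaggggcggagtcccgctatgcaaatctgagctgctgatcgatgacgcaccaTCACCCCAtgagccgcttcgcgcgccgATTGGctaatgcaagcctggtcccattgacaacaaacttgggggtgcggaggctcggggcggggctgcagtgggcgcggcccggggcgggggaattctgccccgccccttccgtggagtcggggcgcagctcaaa
Hmgcs1: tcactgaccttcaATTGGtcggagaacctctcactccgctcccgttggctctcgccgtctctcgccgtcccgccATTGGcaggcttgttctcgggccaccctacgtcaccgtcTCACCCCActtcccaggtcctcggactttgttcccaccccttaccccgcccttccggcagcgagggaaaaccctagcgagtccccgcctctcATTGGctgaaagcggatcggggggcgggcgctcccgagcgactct
Insig1: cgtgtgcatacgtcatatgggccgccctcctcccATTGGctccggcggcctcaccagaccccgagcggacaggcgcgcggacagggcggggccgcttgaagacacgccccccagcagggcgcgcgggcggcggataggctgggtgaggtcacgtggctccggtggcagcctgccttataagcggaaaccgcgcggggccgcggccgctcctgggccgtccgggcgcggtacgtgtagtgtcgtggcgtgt
Idi1: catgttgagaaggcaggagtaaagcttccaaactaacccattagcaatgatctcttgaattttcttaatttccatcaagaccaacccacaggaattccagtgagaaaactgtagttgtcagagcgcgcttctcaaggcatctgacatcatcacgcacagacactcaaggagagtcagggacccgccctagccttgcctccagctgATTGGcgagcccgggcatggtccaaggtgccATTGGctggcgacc

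TCACNCCA lay at bases -162 to -155 from the start of Srebf2 and at -137 to -130 from that of Hmgcs1. These letters occurred in 4.36% of all 32851 windows and in 3.67% of the 12235 windows of tested genes. CCAAT and GGGCGG were each found in a window of each of the 6 matched genes (Dhcr7 has 3 windows). By window, 75% and 87.5% of the 8 windows of these genes held them, against 38.3% and 62.8% of the windows of tested genes. No match overlapped another. A match describes letters only, and a missing match says only that these letters are not in the window.

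The libraries differed in how their reads were spread over genes, and this touches every Cadict value given here. Totals were alike, at 17905771 to 18293056 expected counts, but the 100 most abundant genes took 29.8% to 31.1% of the counts in Cadict libraries, 17.2% to 17.4% in Ctrl and 17.9% to 18.2% in Cu-Cys. TMM scaling, the setting used for the folds, therefore gave factors of 0.64 to 0.665 in Cadict, 1.26 to 1.27 in Ctrl and about 1.21 in Cu-Cys. Over all tested genes, the median of the log2 fold changes in Cadict against Ctrl was -0.13 after TMM scaling, -0.01 with DESeq2 size factors, -1.08 with library totals and -1.13 in TPM, a share of all transcripts corrected for length. Cadict replicate 2 stood apart from the others of its group: the chi-square per degree of freedom of its counts was 14.7 against replicate 1 and 23.2 against replicate 3, while the other pairs of replicates within a group lay between 1.89 and 4.53. It was the lowest Cadict library for 8 of the 8 genes. Without it, every Cadict fold of these genes kept its direction and its side of the thresholds.

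For a line from a colon carcinoma, epithelial markers were nearly absent. Of 8 listed markers 6 were in the table, and their summed level was 3.5 to 6.24 TPM in Ctrl and Cu-Cys libraries and 11.5 to 13.2 TPM in Cadict libraries. Krt19 and Cdh1 made up most of it, while Epcam was at 0 TPM in 8 of the 9 libraries. Leukocyte markers summed to at most 0.08 TPM and endothelial markers to at most 1.2 TPM. Fibroblast markers (Pdgfra, Pdgfrb, Dcn and Col1a1) summed to 51.3 to 57.8 TPM in Ctrl, 32.3 to 33.6 TPM in Cu-Cys and 9.45 to 11.5 TPM in Cadict, and their part in the results was not tested. In these bulk libraries, fewer cells of a type and less RNA per cell cannot be told apart.

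Cu-Cys raised 6 of them by small steps, from 1.18-fold for Dhcr7 to 1.43-fold for Cyp51, and Srebf2 and Hmgcs1 did not pass the test. On TPM only Insig1 and Cyp51 of the 6 still passed. Cadict lowered Hmgcs1, Idi1, Fdft1 and Sqle, the enzymes that lead from acetyl-CoA units to squalene epoxide, by 1.54-fold to 2.16-fold, and this direction held under each scaling tried. Srebf2, Insig1, Cyp51 and Dhcr7 were 1.19-fold to 1.85-fold higher in Cadict than in Ctrl after TMM scaling. They were lower with library totals, in FPKM and in TPM. With library totals their log2 values were -0.34, -0.065, -0.24 and -0.70, where the median of all tested genes was -1.08. In TPM they were -0.68, -0.41, -0.58 and -0.99, beside a median of -1.13. These genes thus lay above the median of all tested genes with TMM, DESeq2 size factors, library totals and TPM. Hmgcs1, Idi1, Fdft1 and Sqle lay below it under each of these.

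In counts, 0 of the 8 genes rose and 2 fell in Cadict against Ctrl at a fold change of at least 2 with an adjusted p of at most 0.001, where 20.7% and 27.1% of all tested genes did. With DESeq2 size factors Insig1 passed as higher and none passed as lower. Under a second rule, an adjusted p of 0.05 or less with no limit on the fold, 4 were higher and 4 lower, beside 40.6% and 47.1% of all tested genes. None of the 8 overlapped between Cadict and Ctrl libraries, and neither did 87.5% of all tested genes. Between Cu-Cys and Ctrl 6 of the 8 did not overlap, beside 61.2% of all tested genes, and between Cadict and Cu-Cys 7 of the 8, beside 85%. In Cu-Cys against Ctrl no member passed the 2-fold rule in edgeR, as 0.167% of all tested genes did as higher and 1.47% as lower, and none passed it in DESeq2 or limma. At an unadjusted p under 0.05 there were 6, and the share of all tested genes at that limit was not counted. Under the second rule 6 were higher and 0 lower, beside 22.6% and 22.4% of all tested genes. The median of their log2 fold changes was 0.32, beside 0.01 over all tested genes. Both comparisons use the same Ctrl libraries.

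**Figure D1:**
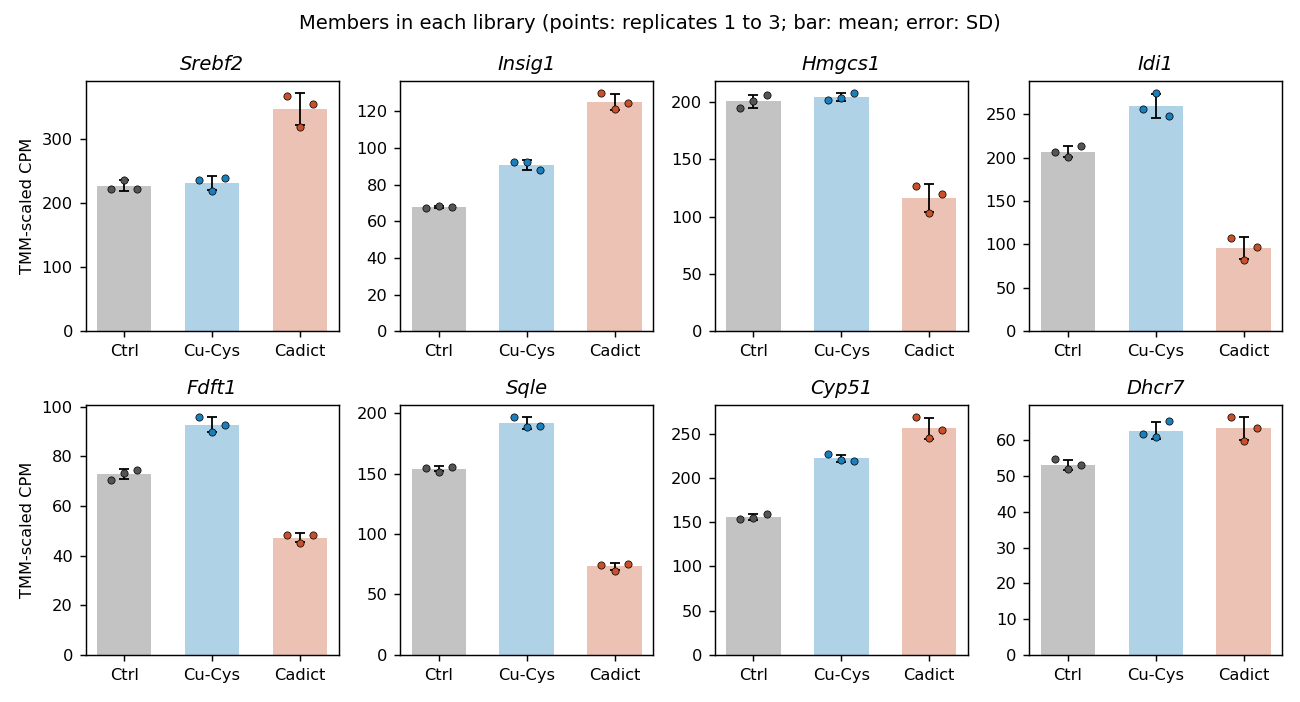
TMM-scaled CPM (vertical axes, each starting at 0) of the 8 genes in every library, with points for replicates 1 to 3, bars for the mean and error bars for the SD. Idi1, Sqle, Hmgcs1 and Fdft1 are lowest in the Cadict libraries, while the higher Cadict levels of Srebf2, Insig1, Cyp51 and Dhcr7 turn lower than Ctrl with library totals, FPKM and TPM.

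Srebf2 encodes SREBP2, the transcription factor of the pathway. Its level was 222, 236 and 222 CPM (TMM-scaled counts, brought to an equal effective library size) in Ctrl replicates 1 to 3, 236, 218 and 238 CPM in Cu-Cys and 366.5, 319 and 354 CPM in Cadict. Every Cadict library lay above the other 6, and the Ctrl and Cu-Cys libraries overlapped. The log2 fold change in Cadict against Ctrl was 0.61 ± 0.06 (SE, n = 3 per group; adjusted p = 7.52e-08, edgeR quasi-likelihood test), but it was -0.34 with library totals and -0.68 in TPM. In Cu-Cys against Ctrl it was 0.03 ± 0.06 (adjusted p = 0.756), so a change beyond the spread was not detected.

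Insig1 encodes the membrane protein that retains SCAP and SREBP2 in the endoplasmic reticulum. It measured 67.1, 68.3 and 67.6 CPM in Ctrl, 92.5, 92.1 and 87.8 CPM in Cu-Cys and 130.1, 121 and 124 CPM in Cadict. The groups formed 3 separate steps with no overlap. Cu-Cys raised it by 0.43 ± 0.05 on the log2 scale (adjusted p = 9.35e-06), and this stayed positive under each scaling tried. For Cadict against Ctrl the value was 0.89 ± 0.05 (adjusted p = 9.72e-11) after TMM scaling and 1.01 with DESeq2 size factors, where it passed the 2-fold rule, yet -0.065 with library totals (adjusted p = 0.257) and -0.41 in TPM. The direction of Insig1 in Cadict thus depends on the scaling.

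Hmgcs1 encodes the cytosolic HMG-CoA synthase, which joins acetyl units on the way to mevalonate. Ctrl libraries had 195, 201 and 206.5 CPM, Cu-Cys libraries 202, 204 and 208 CPM and Cadict libraries 127, 103 and 119.9 CPM. Ctrl and Cu-Cys overlapped, and Cadict lay below both. It fell 1.72-fold in Cadict against Ctrl (log2 -0.78 ± 0.06, adjusted p = 1.06e-08). The value in Cu-Cys against Ctrl was 0.03 ± 0.06 (adjusted p = 0.764). Hmgcs1 and Srebf2, both with TCACNCCA in their windows, lay on opposite sides of Ctrl in Cadict after TMM scaling, though both were lower than Ctrl with library totals. An exon of Hmgcs1 overlaps the antisense gene Gm48342, which was not analysed here.

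Idi1 encodes isopentenyl diphosphate isomerase, which interconverts the 5-carbon units from which isoprenoids are assembled. It was at 206.5, 200.3 and 213 CPM in Ctrl, at 256, 275 and 248 CPM in Cu-Cys and at 107, 82.45 and 97.5 CPM in Cadict. None of the groups overlapped. The fall in Cadict was 2.16-fold (log2 -1.11 ± 0.08, adjusted p = 1e-09) and the rise in Cu-Cys 1.26-fold (log2 0.33 ± 0.07, adjusted p = 0.00173). Of its annotated 50-base stretches 17.7% also occur in other genes, mostly in Gm13502, so reads could have been shared with these. Its exons also overlap Gm48574 on the other strand, not analysed here.

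Fdft1 encodes squalene synthase, which commits farnesyl diphosphate to sterols. Its values were 70.5, 73.5 and 74.6 CPM in Ctrl, 96.02, 89.9 and 92.5 CPM in Cu-Cys and 48.2, 45.15 and 48.45 CPM in Cadict. No library of a group overlapped another group. It fell 1.54-fold in Cadict (log2 -0.62 ± 0.06, adjusted p = 3.2e-08) and rose 1.27-fold in Cu-Cys (log2 0.35 ± 0.05, adjusted p = 8.12e-05). Exons of Fdft1 overlap those of Ctsb, a lysosomal protease on the other strand, and whether strand was used in counting was not given in the sources used here. Ctsb was 4.08-fold higher in Cadict than in Ctrl (1505 against 369 CPM), and its part in the Fdft1 value was not tested. Of the 50-base stretches of Fdft1, 9.38% also occur in Gm6781.

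Sqle encodes squalene epoxidase, an oxygen-dependent, rate-limiting enzyme of the route. The libraries held 154, 152 and 156 CPM in Ctrl, 197, 188 and 189 CPM in Cu-Cys and 74.6, 69.7 and 75.5 CPM in Cadict. Again the 3 groups were apart, with Cu-Cys the highest and Cadict the lowest. Sqle fell 2.1-fold in Cadict (log2 -1.07 ± 0.05, adjusted p = 1.1e-11) and rose 1.25-fold in Cu-Cys (log2 0.32 ± 0.05, adjusted p = 8.61e-05). With Idi1 it made up the 2 genes past the 2-fold rule in Cadict. With DESeq2 size factors both came to just under 2-fold, at -0.95 for Sqle and -0.99 for Idi1.

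Cyp51 encodes lanosterol 14-alpha-demethylase, the first enzyme to modify lanosterol. It had 153, 154 and 159.8 CPM in Ctrl, 227, 221 and 219.5 CPM in Cu-Cys and 269, 245 and 254 CPM in Cadict. The groups did not overlap. Cyp51 showed the largest rise of the 8 genes in Cu-Cys, 1.43-fold (log2 0.51 ± 0.05, adjusted p = 1.53e-06), and remained at an adjusted p of 0.00408 in limma on TPM. In Cadict against Ctrl its log2 value was 0.72 ± 0.05 (adjusted p = 1.14e-09) after TMM scaling, -0.24 with library totals and -0.58 in TPM. Its exons overlap those of Akap9 on the other strand, which did not pass the test in Cadict against Ctrl (log2 -0.17, adjusted p = 0.0821).

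Dhcr7 encodes 7-dehydrocholesterol reductase, which carries out the last step to cholesterol. Ctrl libraries had 54.7, 51.9 and 53.1 CPM, Cu-Cys libraries 61.9, 60.9 and 65.3 CPM and Cadict libraries 66.45, 59.9 and 63.6 CPM. Cu-Cys and Cadict overlapped each other and lay above Ctrl. The rise in Cu-Cys was 1.18-fold (log2 0.24 ± 0.06, adjusted p = 0.00309). In Cadict against Ctrl the log2 value was 0.25 ± 0.06 (adjusted p = 0.000812) after TMM scaling, -0.70 with library totals and -0.99 in TPM.

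The 6 rises in Cu-Cys were tested again on other values. With library totals and in limma on FPKM, 6 of the 8 genes were higher under the second rule, and in limma on TPM only Insig1 and Cyp51 passed. The shares of all tested genes with these settings were not counted. In TPM the log2 values of the other 4 were still positive, from 0.10 for Dhcr7 to 0.20 for Fdft1. Srebf2 and Hmgcs1 turned from 0.03 each to -0.12 in TPM, where the median of all tested genes was also -0.12.

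**Figure D2:**
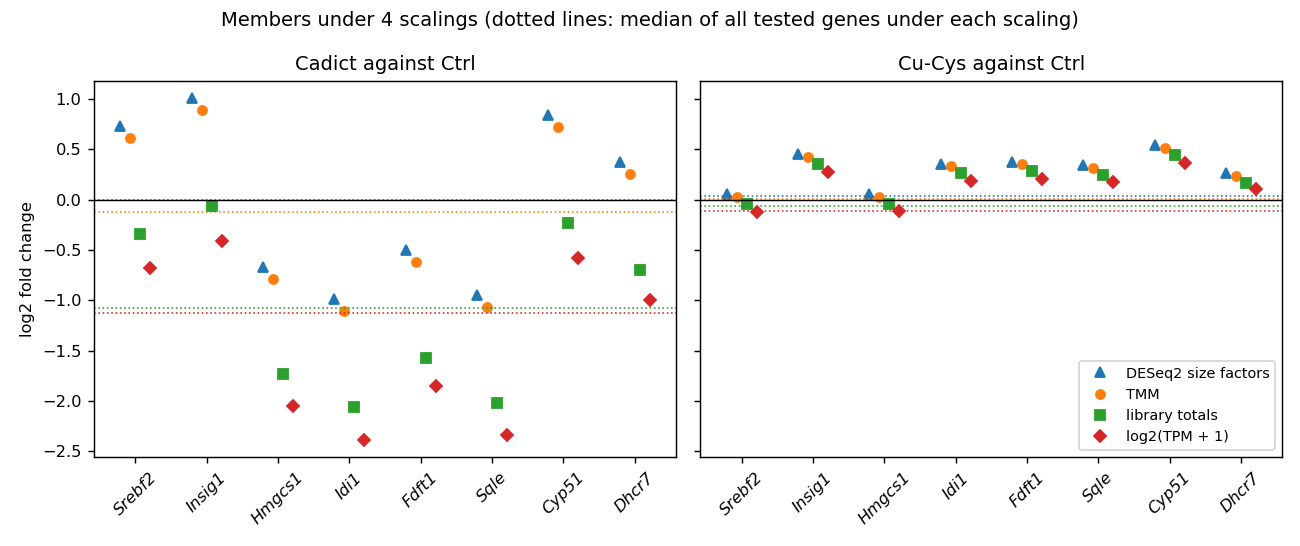
Log2 fold change (vertical axis) of each of the 8 genes in Cadict against Ctrl (left) and Cu-Cys against Ctrl (right) with 4 scalings, and dotted lines for the median of all tested genes under each. In Cadict the 4 genes Srebf2, Insig1, Cyp51 and Dhcr7 are above 0 with TMM and DESeq2 size factors and below 0 with library totals and TPM, while Hmgcs1, Idi1, Fdft1 and Sqle are below 0 with all 4. Under each scaling the former lie above the median of all tested genes in Cadict against Ctrl and the latter below it.

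A ratio of counts within a library does not depend on how libraries are scaled, so each gene was set against Srebf2 in the same library. The log2 ratio to Srebf2 was lower in Cadict than in Ctrl by 1.73 for Idi1 (-1.86 against -0.13), by 1.68 for Sqle (-2.24 against -0.56), by 1.4 for Hmgcs1 (-1.57 against -0.18) and by 1.23 for Fdft1 (-2.87 against -1.64). Dhcr7 was lower by 0.36, Insig1 was higher by 0.28, and Cyp51 was higher by 0.11 with libraries that overlapped. Of the 7 genes, the libraries of 6 did not overlap between Cadict and Ctrl, and neither did 86.5% of all other tested genes. The lower enzymes moved apart from Srebf2 in Cadict whatever the scaling, and 62% of all tested genes were also lower relative to Srebf2 there. In Cu-Cys the ratio of Hmgcs1 to Srebf2 moved by 0.0014 (-0.17 against -0.18), and those of the other 6 genes were higher than in Ctrl by 0.21 for Dhcr7 to 0.49 for Cyp51.

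**Figure D3:**
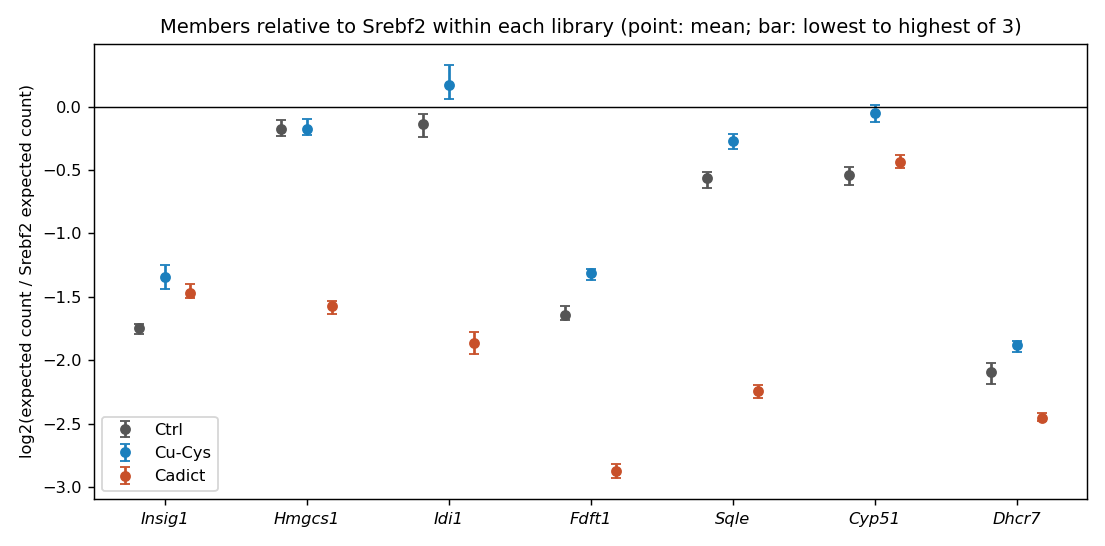
Log2 ratio of the expected count of 7 genes to that of Srebf2 in the same library (vertical axis), with points for the mean of 3 libraries and bars from the lowest to the highest. Hmgcs1, Idi1, Fdft1 and Sqle sit between 1.23 and 1.73 lower in Cadict than in Ctrl, and Cyp51 overlaps.

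Compared per transcript length, the order of the 8 genes changed with Cadict. In Ctrl libraries Idi1 led at 174 ± 5.59 TPM (SD, n = 3), followed by Sqle at 136 ± 3.01 and Hmgcs1 at 135 ± 1.59 TPM, which overlapped each other, and Dhcr7 was last at 52.8 ± 2.34 TPM. Cu-Cys kept Idi1, Sqle and Hmgcs1 in front, with Cyp51 (107 ± 1.66 TPM) and Srebf2 (100.3 ± 5.48 TPM) overlapping in the middle. In Cadict libraries Srebf2 (68.4 ± 11.5 TPM), Cyp51 (55.2 ± 6.96 TPM) and Insig1 (46.8 ± 5.52 TPM) came first, each overlapping its neighbour. Idi1, Hmgcs1, Sqle and Dhcr7 followed at 26.1 to 32.8 TPM, each overlapping the next, and Fdft1 was last at 15.3 ± 1.96 TPM with no overlap. Idi1 thus moved from the head of the order to behind Srebf2, Cyp51 and Insig1, and its place among Hmgcs1, Sqle and Dhcr7 was not settled.

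The summed TPM of the 8 genes was 800.1 to 816 in Ctrl, 872.5 to 888 in Cu-Cys and 251 to 331 in Cadict, so a smaller share of all transcripts came from these genes in Cadict libraries. On the TMM scale the sums were 1123 to 1152 CPM in Ctrl, 1349 to 1367 CPM in Cu-Cys and 1045 to 1189 CPM in Cadict, where Cadict and Ctrl overlapped. The lowest expected count of any of the 8 genes was 518, for Fdft1 in Cadict replicate 2.

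**Figure D4:**
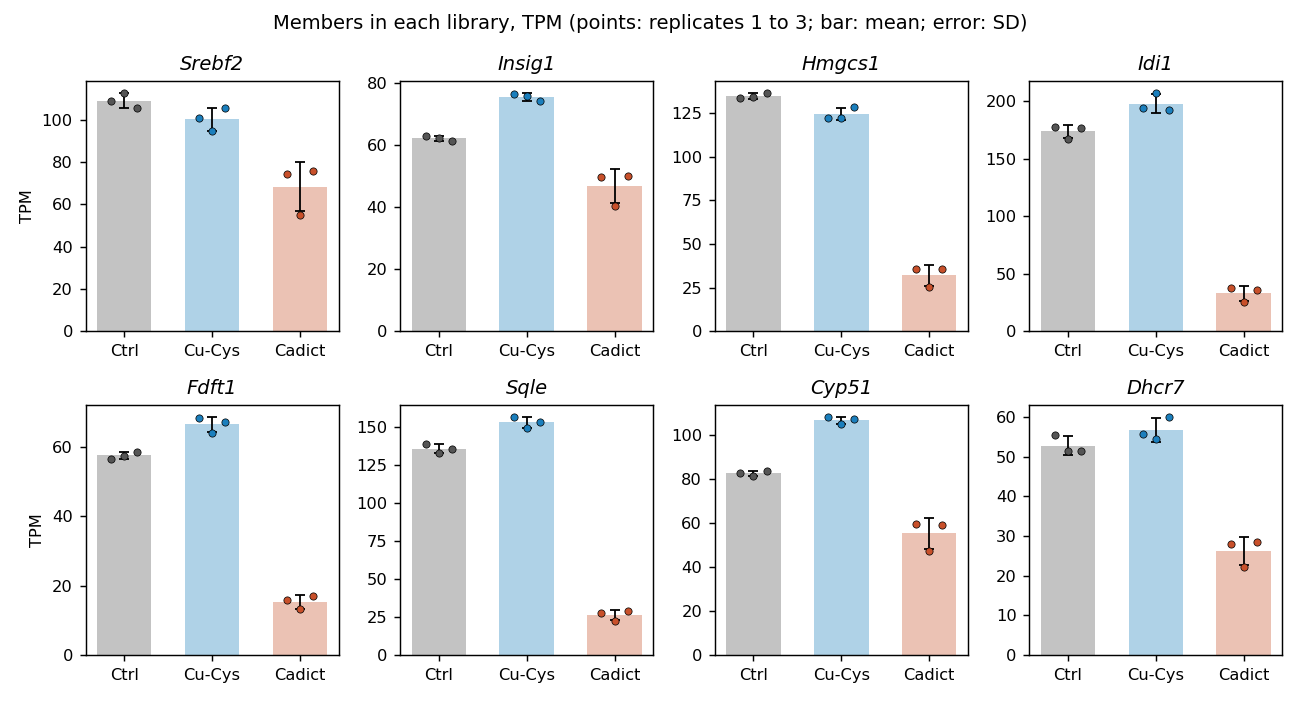
Deposited TPM (vertical axes, each starting at 0) of the 8 genes in every library, with points for replicates 1 to 3, bars for the mean and error bars for the SD. All 8 genes are lowest in Cadict on this scale, from 15.3 TPM for Fdft1 to 68.4 TPM for Srebf2, whereas Srebf2, Insig1, Cyp51 and Dhcr7 are higher there than in Ctrl after TMM scaling. Over all tested genes, the median log2 fold change in TPM was -1.13 in Cadict against Ctrl.

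Cadict was also set against Cu-Cys directly, since the nanoparticle holds copper and cystine together with the enzyme and the peptide. At the 2-fold rule 0 of the 8 genes were higher and 2 lower, beside 18.6% and 23.6% of all tested genes. The 2 were Idi1, lower 2.71-fold (log2 -1.44 ± 0.08, adjusted p = 5.24e-11), and Sqle, lower 2.62-fold (log2 -1.39 ± 0.05, adjusted p = 7.06e-13). Fdft1 fell just short of the rule at 1.96-fold (log2 -0.97 ± 0.06, adjusted p = 1.44e-10), and Hmgcs1 was lower 1.75-fold (log2 -0.81 ± 0.06, adjusted p = 7.96e-09). Under the second rule 3 were higher and 4 lower, beside 40.3% and 45.6% of all tested genes. The 3 higher genes were Srebf2 (log2 0.59), Insig1 (0.46) and Cyp51 (0.2). With library totals these values were -0.30, -0.42 and -0.68, where the median of all tested genes was -0.98. Dhcr7 was at 0.01 ± 0.06 (adjusted p = 0.822) after TMM scaling and at -0.87 with library totals.

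The other enzymes of the route were read from a list of 16 genes, all of which were tested. In Cadict against Ctrl 2 were higher and 4 lower at the 2-fold rule, beside 20.7% and 27.1% of all tested genes. Under the second rule 4 were higher and 9 lower, beside 40.6% and 47.1% of all tested genes. The median of their log2 fold changes was -0.21, beside -0.13 over all tested genes. Mvk, which phosphorylates mevalonate, fell 4.73-fold (log2 -2.24 ± 0.12), Erg28, a scaffold of the sterol demethylating enzymes, fell 3.61-fold, and Acat2, the cytosolic thiolase at the start, fell 2.5-fold. Msmo1, the methylsterol oxidase after Cyp51, was higher 2.29-fold (log2 1.2 ± 0.05) and Sc5d, the desaturase just before Dhcr7, 2.19-fold (log2 1.13 ± 0.05), but with library totals they came to 0.24 and 0.18 and in TPM to -0.09 and 0.06. Fdps, farnesyl diphosphate synthase, was at 0.52 ± 0.07 after TMM scaling and at -0.43 with library totals.

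Idi1 and Fdps, which follow each other in the route, had unlike values in Cadict. Idi1 was lower by 1.11 on the log2 scale and Fdps higher by 0.52 after TMM scaling, and with library totals these values were -2.06 and -0.43. After Sqle, which was lower by 1.07, the next enzyme Lss, lanosterol synthase, was also lower, by 0.50 (adjusted p = 5.1e-06), and Cyp51 after it was higher by 0.72 after TMM scaling but at -0.24 with library totals.

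With Cu-Cys, 10 of the 16 enzymes rose and 1 fell under the second rule, beside 22.6% and 22.4% of all tested genes. None passed the 2-fold rule in edgeR, as 0.167% of all tested genes did as higher and 1.47% as lower. The median over the 16 was 0.28 on the log2 scale, beside 0.01 over all tested genes. Mvd, which makes isopentenyl diphosphate for Idi1, had the largest rise at 1.85-fold (19.8 to 36.7 CPM, adjusted p = 1.57e-06). Msmo1 rose 1.56-fold, Hsd17b7, a sterol ketone reductase, 1.47-fold and Sc5d 1.35-fold. Tm7sf2, a sterol C14 reductase, was the 1 that fell (log2 -0.55 ± 0.15, adjusted p = 0.00866), from 3.6 to 2.46 CPM. Mvk was at -0.01 ± 0.08 (adjusted p = 0.915) and Pmvk at -0.17 ± 0.09 (adjusted p = 0.157). In limma on TPM 4 of the 16 were higher and 2 lower, where the share of all tested genes was not counted.

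**Figure D5:**
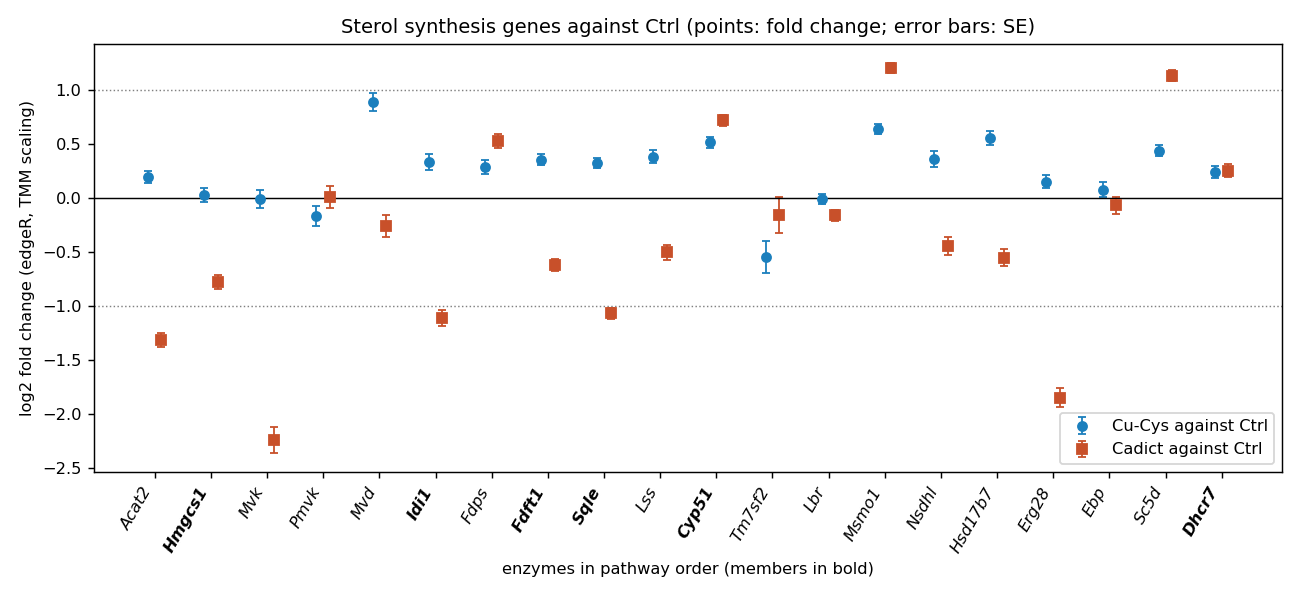
Log2 fold change against Ctrl after TMM scaling (vertical axis, with SE bars) of 20 sterol synthesis enzymes in pathway order, 6 of the 8 genes in bold, with dotted lines at a 2-fold change. Cu-Cys values run from -0.55 to 0.89 and Cadict values from -2.24 to 1.2, and the Cadict values above 0 come down by about 0.95 with library totals, where those of Pmvk, Fdps, Cyp51 and Dhcr7 turn negative.

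Genes that process SREBP or sense sterols were next in order. Of 9 listed, 1 was higher and 8 lower in Cadict against Ctrl under the second rule, beside 40.6% and 47.1% of all tested genes. At the 2-fold rule 4 were lower, beside 27.1% of all tested genes. Rnf145 and Rnf139, ubiquitin ligases of the sterol-sensing machinery, fell 8.95-fold (55.8 to 6.23 CPM) and 5.66-fold (31.1 to 5.49 CPM). The median of the list was -0.73 on the log2 scale, beside -0.13 over all tested genes. In Cu-Cys against Ctrl 2 of the 9 were higher and 2 lower under the second rule, near the 22.6% and 22.4% of all tested genes.

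Of 8 genes of sterol uptake and other SREBP2 targets, 7 passed the filter on low counts and were tested. In Cu-Cys against Ctrl 6 of the 7 rose and none fell under the second rule in edgeR, beside 22.6% and 22.4% of all tested genes. The median of the 7 on the log2 scale was 0.33, beside 0.01 over all tested genes. In TPM the log2 values of the 6 ran from 0.015 to 0.52, where the median of all tested genes was -0.12. Whether they passed a test on TPM is not given here. In Cadict against Ctrl 3 were higher and 3 lower, beside 40.6% and 47.1% of all tested genes. Npc1 and Npc2, which move cholesterol out of lysosomes, were higher 3.28-fold (34.1 to 112 CPM) and 2.3-fold (252 to 579 CPM), and in TPM their log2 values were 0.39 and -0.11. Mmab, a cobalamin enzyme, fell 2.79-fold.

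The genes whose profile over the 9 libraries was most like each member were taken from 8543 genes that averaged 10 CPM or more. These left out the 8 members but kept the genes of the other lists. The measure was the root mean square difference in centred log2 CPM. Srebf2 was nearest to Smurf1 (0.04), Insig1 to Abitram (0.04), Hmgcs1 to Igf2bp3 (0.03), Idi1 to Tbk1 (0.08), Fdft1 to Gemin5 (0.05), Sqle to Pprc1 (0.05), Cyp51 to Dkc1 (0.05) and Dhcr7 to Prdm4 (0.03). Among the 8 genes themselves, Idi1 and Sqle were the closest pair at 0.08 and Insig1 and Cyp51 the next at 0.11.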

How the data were processed

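RNA from 9 MC38 libraries in 3 groups was analysed. The authors deposited, per gene and library, expected counts, FPKM, TPM and a scaled signal that was not used. The submitters' processing notes name HISAT2 2.1.0, Bowtie2 2.3.4.3, RSEM 1.3.1 and the builds GRCh38.p13 and GRCm39, with no roles. Columns labelled CC and CCGE were read as Cu-Cys and Cadict, the latter inferred from its components. Group averages were left out. Labels name a column kit and DNA nanoballs, the study's text TRIzol and Illumina.

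Expected counts were rounded and fitted with edgeR 4.0.16 in R 4.3.3 (filterByExpr, TMM, a quasi-likelihood model with 3 groups), with Benjamini-Hochberg adjustment over 11949 genes. Calls needed a 2-fold change or more with an adjusted p no higher than 0.001 or, as a second rule, an adjusted p no higher than 0.05. Standard errors were derived from the F statistic. The fit was tested on simulated data with balanced changes in a small part of the genes, which could not check the choice of scaling. Alternatives used DESeq2 1.42.0 and limma 3.58.1 on log2 FPKM or TPM with pseudocounts of 1 and 0.1. Levels between genes are given in deposited TPM. Coordinates and 50-base stretches come from GENCODE M21 and RefSeq tables of GRCm38, while the notes name GRCm39. Named genes were all 8 members, any of the other sterol synthesis genes, and from each further list the 3 largest Cadict changes at an average of at least 10 CPM. The nearest-profile genes were chosen by that same minimum. Some genes that these rules select are not reported here by name, although they stay in the counts over the lists. The members and lists were chosen with earlier results of these data known.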

Additional observations from a re-analysis of the deposited data

How the results depend on the processing

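Counts for the 0.05 limit alone with other scalings were added after seeing the data. With library totals, log2 values in Cadict against Ctrl became -0.34 for Srebf2, -0.065 for Insig1, -0.24 for Cyp51 and -0.70 for Dhcr7, and in Cadict against Cu-Cys -0.30, -0.42, -0.68 and -0.87. The medians of all tested genes in these 2 comparisons were -1.08 and -0.98. In limma on FPKM with pseudocounts of 1 and 0.1 the first set was -0.34 and -0.34, -0.072 and -0.074, -0.24 and -0.24, and -0.65 and -0.67, and the second -0.29 and -0.29, -0.42 and -0.43, -0.67 and -0.68, and -0.82 and -0.85. In limma on TPM with the same pseudocounts the first set was -0.68 and -0.69, -0.41 and -0.42, -0.58 and -0.59, and -0.99 and -1.02, and the second -0.56 and -0.57, -0.69 and -0.70, -0.94 and -0.96, and -1.1 and -1.12. In Cu-Cys against Ctrl, Srebf2 and Hmgcs1 turned to -0.043 with library totals, to -0.048 and -0.043 (-0.044 at the lower pseudocount) on FPKM and to -0.12 on TPM. The cause was not tested beyond the scaling itself.

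At the 2-fold rule, the members called lower in Cadict against Ctrl numbered 4 with library totals and on FPKM, and 4 or 5 on TPM. The median of all tested genes was itself -1.08 with library totals and -1.13 on TPM. Under these scalings the share of all tested genes called was not counted, for these counts and for those of the other enzymes below. With DESeq2 size factors and in the DESeq2 Wald test 0 members were lower and 1, Insig1, was higher. Against Cu-Cys 4 were lower with library totals and on FPKM and 5 on TPM. The limit of 0.05 alone gave 4 higher and 4 lower against Ctrl, 3 and 4 against Cu-Cys, and 6 higher in Cu-Cys against Ctrl. Of the other sterol enzymes, 0 were called higher in Cadict against Ctrl with library totals, FPKM and TPM, and 11, 9 to 11 and 12 lower, whereas against Cu-Cys 10 were lower. The limit of 0.05 alone gave 4 higher and 9 lower against Ctrl, 4 higher against Cu-Cys, and for Cu-Cys against Ctrl 10 higher and 1 lower.

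With that limit, 0 members were higher in both Cadict comparisons with library totals, FPKM and TPM. Against Ctrl 7 were lower with totals and FPKM and 8 on TPM, and against Cu-Cys 8. The share of all tested genes past that limit was not counted under these scalings, for the members or the other enzymes. Those genes had a median of -1.08 with totals and -1.13 on TPM against Ctrl. Against Cu-Cys it was -0.98 and -0.96, so the counts of lower members alone do not set them apart from other genes. In Cu-Cys against Ctrl, TPM left 2 higher. Of the other enzymes, 2 were higher in Cadict against Ctrl with totals and FPKM and 0 on TPM, where 14 were lower, and against Cu-Cys 0 were higher and 15 or 16 lower. In Cu-Cys against Ctrl 4 were higher on TPM and 2 lower with totals, TPM or FPKM at a pseudocount of 1.

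Dhcr7 in Cadict against Cu-Cys, near 0 throughout, was -0.076 with no filter, -0.024 with at least 10 counts in every library, and -0.024 to 0.050 with each replicate left out. Leaving out a replicate gave 2 to 3 members lower in Cadict against Cu-Cys, where Fdft1 passed the 2-fold rule without Cu-Cys replicate 2 (-1.003), and it changed no other call of a member at that rule. Replicate numbers did not pair the libraries (correlations of -0.197 to 0.167 over 8551 genes), and with the replicate number as a block the fold changes of the members kept their calls, for example -1.11 for Idi1 and 0.61 for Srebf2 in Cadict against Ctrl, with 2 members called lower.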

Other observations

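Of 11 genes of sterol efflux, storage and LXR signalling 7 were tested, and in Cadict against Ctrl 5 were higher and 1 lower at an adjusted p no higher than 0.05, beside 40.6% and 47.1% of all tested genes. This is a count after TMM scaling, and with library totals 3 of the 7 had a log2 value above 0. Soat2 was counted among the 5 and among the 3. It passed the filter on low counts only through its Cadict libraries, so its place among the higher genes was set by that filter. Soat1, which esterifies cholesterol for storage, was higher 3.03-fold (74.6 to 226 CPM) after TMM scaling, and its log2 value was still 0.29 in TPM. Soat2, its paralogue, named after its values were seen, had 1 expected count in each Ctrl library, 1, 3 and 1 in Cu-Cys and 77, 89 and 74 in Cadict. Lpcat3, a phospholipid acyltransferase, fell 1.81-fold, and Nr1h2, a liver X receptor, was at a log2 value of 0.66 after TMM scaling and -0.3 with library totals.

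Fatty acid synthesis genes driven by SREBP1 were split, with 5 of 13 higher and 6 lower in Cadict against Ctrl at an adjusted p no higher than 0.05. This stood beside 40.6% and 47.1% of all tested genes. Me1, which makes NADPH, was higher 3.65-fold and Elovl5, a fatty acid elongase, 3.57-fold, and both stayed positive with library totals (0.91 and 0.89). Gpam, which starts triglyceride synthesis, fell 2.85-fold. Of 10 isoprenoid branch genes 6 were higher and 4 lower at that limit, beside the same shares of all tested genes. Pdss1, Pggt1b and Ggps1 were at 0.96, 0.67 and 0.56 after TMM scaling, and at 0, -0.28 and -0.39 with library totals.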
